A study of Mus musculus with 4 samples.

Results

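Cells whose RNA was rich in both insulin and pancreatic polypeptide were examined in mouse pancreatic islets profiled by single-cell RNA sequencing. A barcode counted as such a double-hormone cell when it had at least 500 genes, at most 20% mitochondrially encoded UMIs, Ins1 and Ins2 together at 5% or more of its UMIs, Ppy at 1% or more, and Gcg and Sst each below 3%. A UMI (unique molecular identifier) marks 1 captured transcript. The rule was met by 250 of 43205 kept cells, from 45709 barcodes in 4 libraries. The levels of the 5 genes that the rule used are given below as a description of what was chosen.

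All mice were males aged 8 weeks, with 1 library per group. Cre-positive mice were homozygous for floxed alleles of Tet2 and Tet3, enzymes that oxidise 5-methylcytosine. They also carried Pdx1-Cre, a transgene that acts in the pancreatic epithelium, the source of islet endocrine cells. The share of cells in which it acted was not measured here. Cre-negative mice carried the same floxed alleles without Pdx1-Cre. IHG offspring were born to mothers with hyperglycaemia during pregnancy, and control offspring were born to control mothers. Islets were picked by hand, cultured and dissociated with trypsin before loading on the SeekOne MM microwell platform, which tags the 3' end of transcripts. How many mice stood behind 1 library is not given here, so every difference between groups below compares 2 libraries and has no replicate check.

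Beta cells make insulin, from the 2 genes Ins1 and Ins2 in the mouse, and PP cells (gamma cells) make pancreatic polypeptide, a peptide of the neuropeptide Y family that signals through the Y4 receptor. Most PP cells sit in the part of the pancreas that derives from the ventral bud. Lineage tracing in mice has described insulin-producing cells that once expressed Ppy. A barcode with both hormones can also arise when 2 cells share a microwell, and Scrublet, which scores each barcode by its likeness to sums of other barcodes of its library, is used for such doublets.

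2 sets of cells served for comparison. Insulin-only cells met the same rule but had Ppy below 1% (23833 cells), and PP-only cells met it but had insulin below 5% (1093 cells). Ppy lies at chr11:102099930-102101319 on the minus strand (GRCm38, GENCODE vM21), 5356 bases from its family member Pyy at chr11:102106676-102107832 on the same strand. Ins1 lies at chr19:52264297-52265476 on the plus strand and Ins2 at chr7:142678656-142743381 on the minus strand.

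Totals per library ran between 52489846 and 109110492 UMIs, with a median of 5505.5 to 7831.5 UMIs per kept cell. Of the 250 double-hormone barcodes, 10 (4%) also occurred in another library, against 1743 of all 45709 barcodes (3.81%), and no barcode met the rule in a pair of libraries. The floxed genes were measured by 3' tags, which may lie outside the deleted part and so check nothing. Tet2 had 41.9 CPM (counts per 1000000 UMIs, leaving out the 5 rule genes and mitochondrially encoded genes) in Cre-positive, 50.2 CPM in Cre-negative, 50.5 CPM in IHG offspring and 55.2 CPM in control offspring double-hormone cells. Tet3 had 31.6, 66.9, 28.8 and 53.2 CPM in the same order, the Cre-negative value resting on 8 UMIs.

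Double-hormone cells numbered 104 in the Cre-positive library, 9 in the Cre-negative library, 57 in IHG offspring and 80 in control offspring. As a share of kept cells these were 1.08% (exact 95% binomial interval 0.887 to 1.31%), 0.152% (0.0694 to 0.288%), 0.477% (0.362 to 0.618%) and 0.508% (0.403 to 0.632%), intervals that cover counting error only. The Cre-positive share was 7.15 times the Cre-negative share (3.62 to 16.1), and the IHG share was 0.940 times the control share (0.657 to 1.34).

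The shares depended on the cells they were set against. Among all cells with Ppy at 1% or more and little glucagon or somatostatin RNA, double-hormone cells made up 24.1% in the Cre-positive library (104 of 432) and 2.97% in the Cre-negative library (9 of 303). The corresponding shares were 15.2% in IHG offspring (57 of 374) and 34.2% in control offspring (80 of 234). The IHG to control ratio was then 0.446. Among all insulin-rich cells of the rule the double-hormone share was 3.47% in Cre-positive and 0.283% in Cre-negative mice, a ratio of 12.3. It was 0.886% in IHG and 0.698% in control offspring, a ratio of 1.27, with intervals of 0.671 to 1.15% and 0.554 to 0.868% that overlapped. The direction between IHG and control offspring thus differed with the denominator. PP-only cells alone were 3.42% of Cre-positive and 4.96% of Cre-negative kept cells, and 2.66% of IHG and 0.978% of control offspring kept cells.

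The Cre-negative library also differed in how much Ppy its PP-only cells held. Their median was 2.94% of UMIs, against 9.03% in Cre-positive, 11.9% in IHG offspring and 10.0% in control offspring PP-only cells. Pyy ran the other way, with a median of 6.02% in Cre-positive and 15.2% in Cre-negative PP-only cells. When Pyy at 1% or more replaced Ppy in the rule, a choice made after seeing the data, 162 Cre-positive, 122 Cre-negative, 188 IHG and 159 control offspring cells met it. The ratio was then 0.821 between Cre-positive and Cre-negative and 1.56 between IHG and control offspring. The Cre-positive to Cre-negative ratio thus fell from well above 1 to somewhat below it, and no reversal is read from that. The IHG to control ratio rose above 1, though its interval under Ppy had already included 1.

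**Figure D1:**
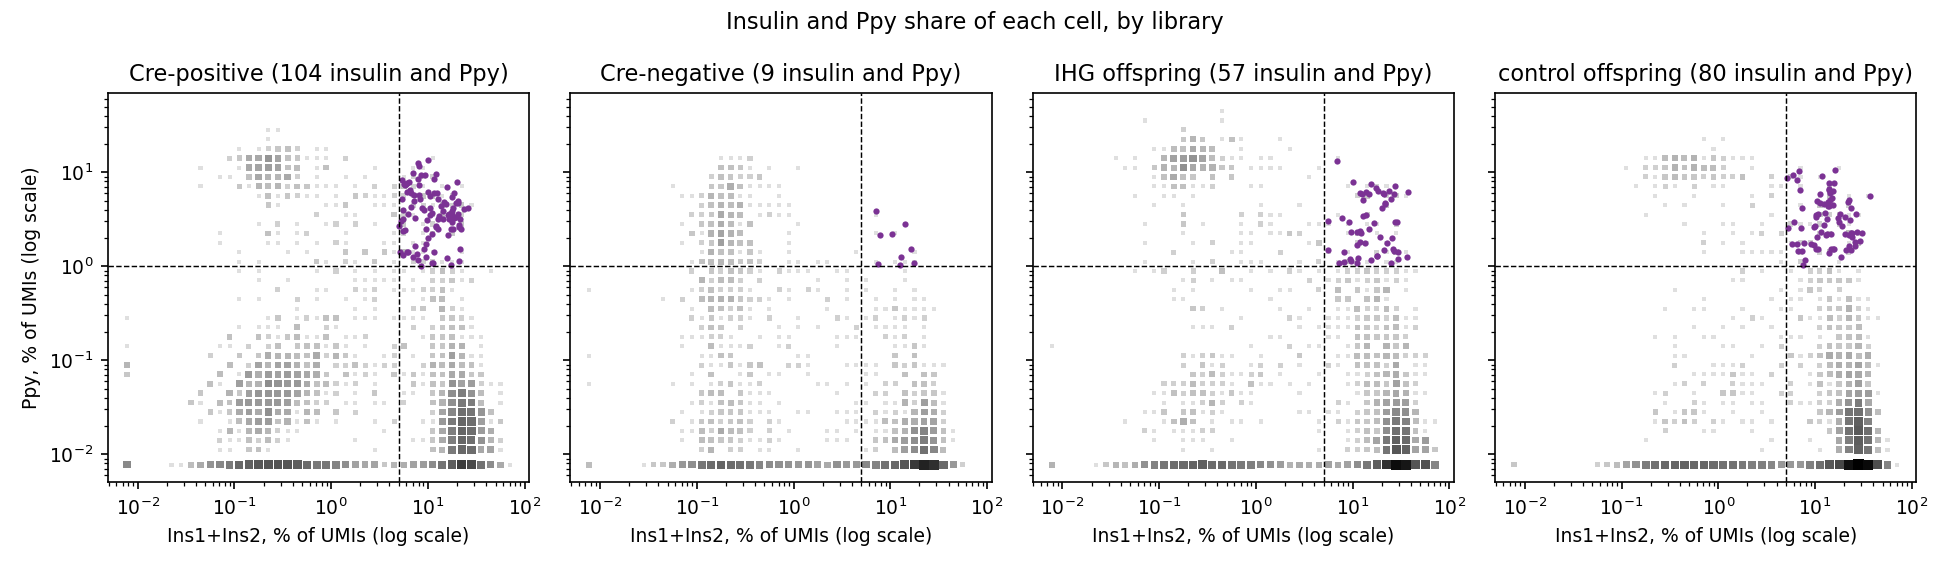
Share of Ppy (y axis, % of UMIs) against share of Ins1 and Ins2 (x axis, % of UMIs) for the kept cells of each library, both on log scales. Grey squares are bins of cells, darker and larger with more cells, purple points are the double-hormone cells and dashed lines mark 5% insulin and 1% Ppy, with cells at 0 drawn at the low end of each axis; the purple points, 104, 9, 57 and 80 from left to right, lie at low insulin relative to the dense insulin-only cloud.

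Double-hormone cells held less insulin RNA than insulin-only cells and less Ppy than PP-only cells. Insulin made up a median of 10.8% of UMIs in Cre-positive, 12.5% in Cre-negative, 15.5% in IHG and 13.8% in control offspring double-hormone cells. Insulin-only cells had medians of 23.1, 22.0, 29.8 and 28.2% in the same order. The double-hormone medians were thus between 0.466 and 0.570 of the insulin-only ones.

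Ppy made up a median of 3.62% of UMIs in Cre-positive, 1.55% in Cre-negative, 2.52% in IHG and 2.85% in control offspring double-hormone cells, between 0.212 and 0.526 of the PP-only medians. Most cells were richer in insulin, since Ppy exceeded insulin in 18 of 250. By Ppy level, 68 cells held 1 to 2%, 114 held 2 to 5%, 62 held 5 to 10% and 6 held 10% or more. By insulin level, 81 cells held 5 to 10%, 116 held 10 to 20%, 49 held 20 to 30% and 4 held more.

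The thresholds cut through a continuous range. Just outside the Ppy limit, 47 cells with 0.75 to 1% Ppy had a median of 14.5% insulin and 6490 UMIs, and just inside it 23 cells up to 0.25 points above the limit had 11.1% insulin and 10962 UMIs. Just outside the insulin limit, 25 cells with 4 to 5% insulin had a median of 2.26% Ppy, and 19 cells with 5 to 6% had 3.04%. No gap in cell number was seen at either limit.

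Pyy, which the rule did not use, was abundant as well. It reached 1% of UMIs in 223 of 250 double-hormone cells and exceeded Ppy in 109 of them. Its median share was 3.37% in Cre-positive, 2.93% in Cre-negative, 3.31% in IHG and 2.48% in control offspring double-hormone cells. Across cells within a library, Spearman's rho between the Ppy and Pyy shares was 0.586, 0.283, 0.678 and 0.631 over 104, 9, 57 and 80 cells; the cells of a library share its processing and the denominators. Between Ppy and insulin it was -0.11, -0.23, 0.11 and -0.06.

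Iapp, the amylin hormone of beta cells, made up a median of 3.16% of UMIs in Cre-positive, 2.02% in Cre-negative, 3.90% in IHG and 3.12% in control offspring double-hormone cells. Insulin-only cells held 5.07, 4.79, 4.95 and 4.47%, and PP-only cells 0.0889, 0.0661, 0.0609 and 0.118%. The double-hormone median was below the insulin-only one in each library and far above the PP-only one.

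With all doublet scores kept, the double-hormone cells were deeper than insulin-only cells in all 4 libraries. Their median was 15595.5 UMIs against 10124 in the Cre-positive library, and 17906 against 9908 in the Cre-negative library. It was 9424 against 8927.5 in IHG offspring and 7339.5 against 5939 in control offspring. The ratio to insulin-only cells was 1.54, 1.81, 1.06 and 1.24, with a median of 1.39. PP-only cells were shallower, with medians of 4950, 6637, 5505 and 3624 UMIs. Set against the sum of the insulin-only and PP-only medians, the double-hormone median was 1.03 and 1.08 times that sum in Cre-positive and Cre-negative mice, and 0.653 and 0.767 times it in IHG and control offspring. The number of genes per cell followed, with medians of 3892, 4646, 2871 and 2498.5 in double-hormone cells and 2987.5, 3133, 2592 and 2033 in insulin-only cells.

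**Figure D2:**
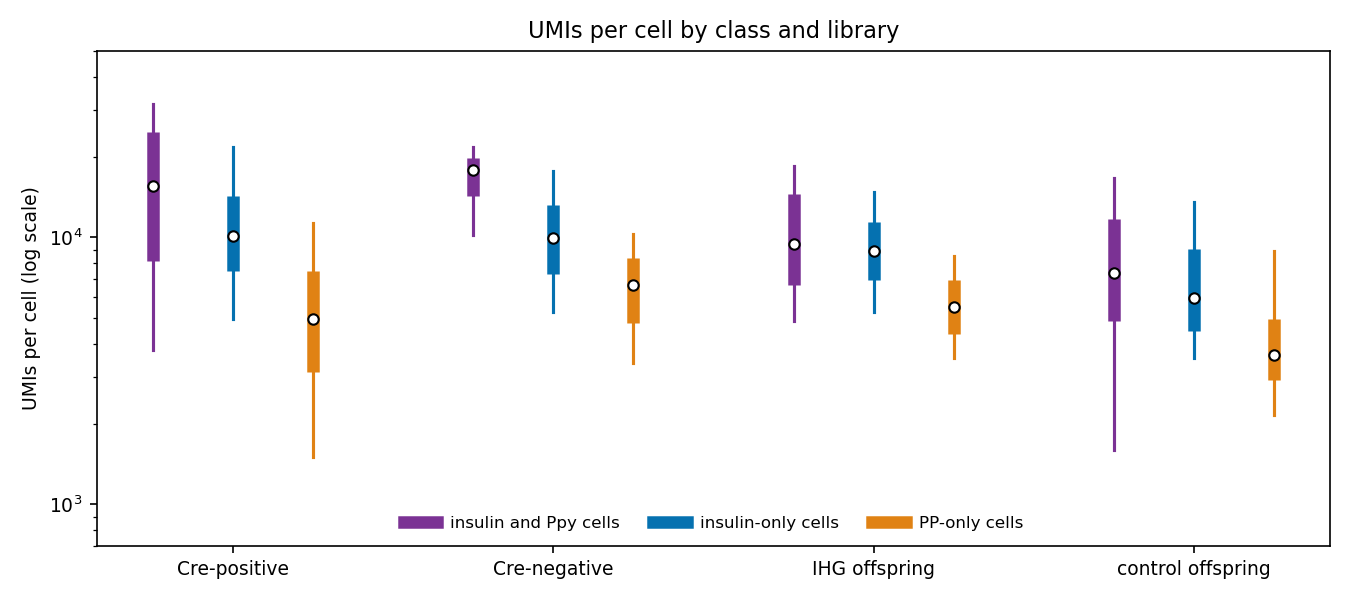
UMIs per cell (y axis, log scale) in each class and library; thick bars span the 25th to 75th percentile, thin lines the 10th to 90th, and circles mark medians. The double-hormone medians of 15595.5, 17906, 9424 and 7339.5 UMIs stand above the insulin-only and PP-only medians of their own libraries.

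Compared with insulin-only and PP-only cells, high doublet scores were several times more frequent among double-hormone cells. Of these, 36.5% in Cre-positive mice (interval 27.3 to 46.6%), 55.6% in Cre-negative mice (21.2 to 86.3%), 26.3% in IHG offspring (15.5 to 39.7%) and 28.8% in control offspring (19.2 to 40.0%) lay in the top 6% of Scrublet scores of their library. The shares were 5.15, 5.99, 4.87 and 4.90% of insulin-only cells and 7.62, 3.06, 1.26 and 4.55% of PP-only cells. In all, 81 of 250 double-hormone cells (32.4%) were in the top scores and 169 were not. Without the top scores the double-hormone medians were 13203, 14102, 8160 and 6430 UMIs, against 10121, 9832, 8888 and 5853 in insulin-only cells. The IHG double-hormone cells were then the shallower. Scrublet's automatic cut marked 14 of the 250. It marked under 0.5% of cells in the Cre-negative and control offspring libraries, where it was taken not to have worked.

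A part of the cells was neither deep nor high in doublet score. Of the 250 cells, 85 held no more UMIs than the median insulin-only cell of their library, and 76 of these lay outside the top scores (24 Cre-positive, 1 Cre-negative, 26 IHG and 25 control offspring cells). In these 76 the median insulin share was 8.09% in Cre-positive, 14.2% in Cre-negative, 12.0% in IHG and 10.2% in control offspring cells, and the median Ppy share was 3.21, 2.79, 2.30 and 3.14%. The shallowest 15 cells, with under 2000 UMIs, came from the Cre-positive library (6) and control offspring (9).

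High scores were more frequent at higher insulin up to 30% of UMIs, over all libraries. Of the double-hormone cells with 5 to 10% insulin, 19.8% were among the top scores and the median depth was 7113 UMIs. With 10 to 20% insulin the share was 32.8% and the depth 10811 UMIs, and with 20 to 30% insulin the share was 53.1% and the depth 14371 UMIs. Of the 4 cells with more insulin 1 was among the top scores (25%), at a median of 18109 UMIs. The libraries fill these bands unequally, with 0 Cre-negative cells above 20%.

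**Figure D3:**
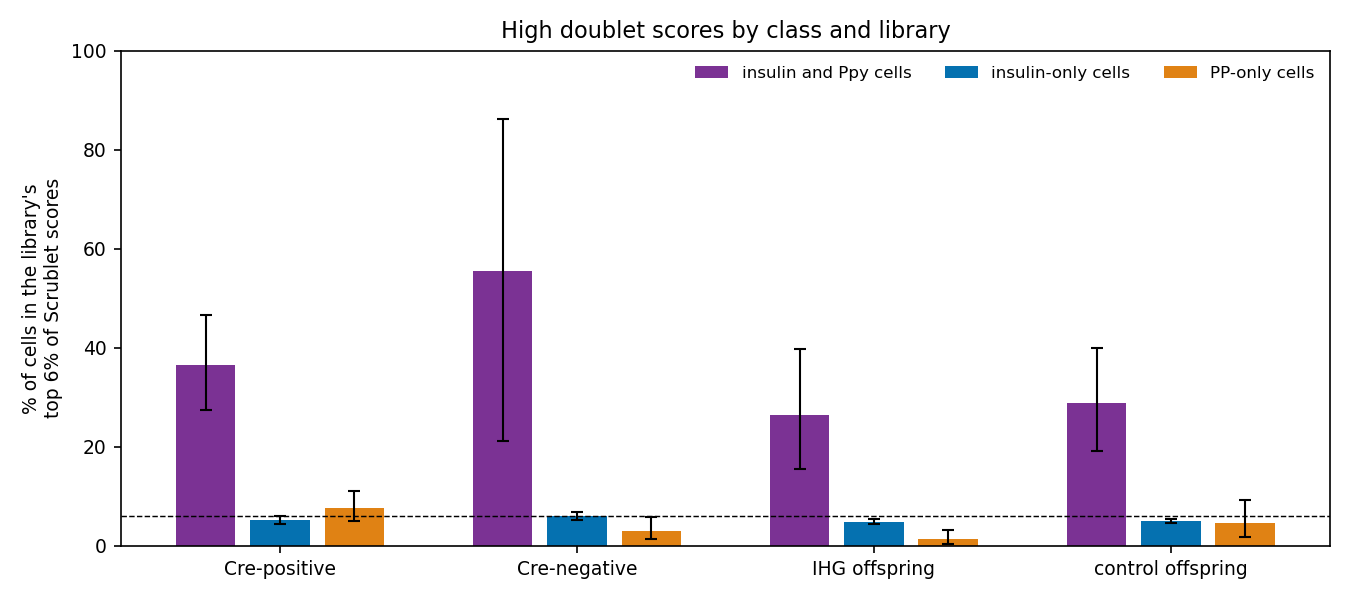
Percent of the cells of each class that lay in the top 6% of Scrublet scores of their library (y axis), with exact 95% binomial intervals; the dashed line marks 6%. The bars of double-hormone cells stand between 26.3% and 55.6%, and those of the other classes between 1.26% and 7.62%.

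Other pairings of markers were counted in the same libraries. Per 100 PP-only cells there were 22.9 double-hormone cells over all libraries, or 31.7 in Cre-positive, 3.06 in Cre-negative, 18.0 in IHG and 51.9 in control offspring. Per 100 cells with 3% or more Gcg and little insulin, 20.8 cells held both Gcg and insulin, or 22.8, 2.79, 16.2 and 36.8 in the same order. The order of the libraries was the same for both hormones, with Cre-negative lowest and control offspring highest. Per 100 cells with 3% or more Sst and little insulin, 30.8 held both (20.1, 21.6, 16.4 and 77.7). These limits of 3% differ from the 1% used for Ppy. With Ppy at 3% the insulin and Ppy value was 15.9 over all libraries. With Gcg or Sst at 1% the values were 24.8 and 41.3. At equal limits of 1% or 3% the insulin and Ppy pair was thus the least frequent of these hormone pairs over all libraries. High depth and scores were shared by these pairs. Insulin and Gcg cells had a median of 12863 UMIs against 5833 in Gcg cells with little insulin, and 53.9% were among the top scores. Insulin and Sst cells had 10350.5 against 4367.5 UMIs and 36.3% among the top scores, beside 32.4% of double-hormone cells.

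Insulin also appeared in cells rich in endothelial genes (0.3% or more of UMIs from 8 endothelial markers), at 3.13 in Cre-positive, 4.50 in Cre-negative, 13.1 in IHG and 14.8 in control offspring per 100 such cells without insulin, and 8.59 over all. Over all libraries these barcodes had a median of 6043.5 UMIs against 2170 in endothelial cells without insulin, though the 9 Cre-negative ones had 939 against 2272. Of all 326, 58.0% were among the top scores. Ppy joined endothelial genes in 0.501 per 100. Ppy also occurred with Sst in cells with insulin below 5%, at 17.0 per 100 Sst cells, and with Gcg at 9.50 per 100 Gcg cells. Those Ppy and Sst cells had a median of 4687 UMIs against 4404 in Sst cells without Ppy, and 2.67% of them were among the top scores.

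**Figure D4:**
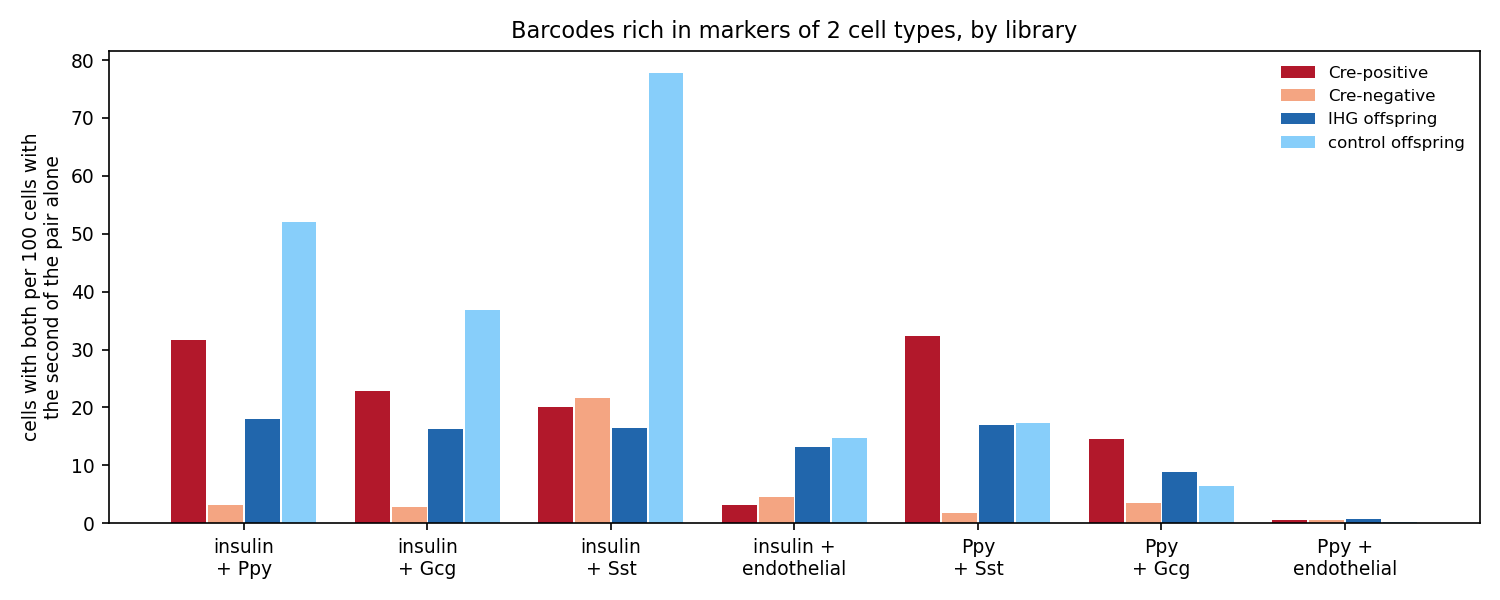
Number of cells rich in markers of 2 cell types per 100 cells with the second of the pair alone (y axis), for 7 pairs and 4 libraries. The limit was 1% of UMIs for Ppy and 3% for Gcg and Sst, so bars of different hormones stand at unlike limits. For the insulin and Ppy pair the values are 31.7, 3.06, 18.0 and 51.9 in Cre-positive, Cre-negative, IHG and control offspring libraries; 1 bar stands for 1 library and has no error.

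Hormone RNA was also counted in endothelial-rich cells, which should make neither hormone. Ppy reached 1% of UMIs in 0.815% of 1840 Cre-positive, 0.461% of 217 Cre-negative, 1.24% of 969 IHG and 0.229% of 1310 control offspring endothelial-rich cells. Insulin reached 5% in 3.21, 4.15, 17.8 and 13.7% of them, and 2 of 4336 met the whole rule. Those with 5% insulin include the 326 barcodes above, so free RNA and cell pairs cannot be told apart in these shares. The median insulin share of endothelial-rich cells was 0.264, 0.250, 0.342 and 0.682%. Any Ppy UMI at all was found in 38.4, 10.1, 26.5 and 13.1% of endothelial-rich cells (median depths of 2104 to 2576 UMIs), and in 76.3, 32.3, 34.3 and 19.4% of insulin-only cells (5939 to 10124 UMIs).

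Genes outside the rule were compared between classes with edgeR's quasi-likelihood test on UMIs summed per library and class, with the library as a block. The 9 Cre-negative double-hormone cells were left out of the fit for their number, so double-hormone cells of 3 libraries entered it. The Cre-negative insulin-only and PP-only sums stayed in the fit. The gate set the classes apart by hormone RNA of the same cells, so genes that accompany either hormone differ by the way the cells were chosen, and the calls describe the gated cells. Of 11042 genes tested, 454 (4.11%) were higher and 251 (2.27%) lower in double-hormone than in insulin-only cells at an adjusted p under 0.05, 705 in all (6.38%). Against PP-only cells 516 (4.67%) were higher and 187 (1.69%) lower, 703 in all (6.37%). Both contrasts share the double-hormone cells and are given side by side. The counts against insulin-only cells fell to 158, 256 and 278 without the Cre-positive, IHG and control offspring libraries in turn, and those against PP-only cells to 289, 244 and 316. Without the Cre-negative library the 2 counts rose to 1012 and 894.

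Pyy, which neighbours Ppy and is made by PP cells, was higher in double-hormone than in insulin-only cells. It had 57901 CPM in Cre-positive, 54057 CPM in Cre-negative, 74285 CPM in IHG and 43851 CPM in control offspring double-hormone cells. Insulin-only cells had 1381, 2200, 1171 and 496 CPM, and PP-only cells 95489, 188510, 201350 and 104040 CPM. The double-hormone cells stood between the other classes in each library. The log2 fold change was 5.95 ± 0.27 (SE) against insulin-only cells (edgeR adjusted p = 1.8e-08) and -1.16 ± 0.24 against PP-only cells (edgeR adjusted p = 0.0084). Without the top doublet scores the difference of Pyy from insulin-only cells was 6.11 on the log2 scale, and in cells between the 25th and 75th percentile of double-hormone depth it was 6.28.

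Of 20 genes reported in PP cells, largely of human islets, 15 were tested. Against insulin-only cells 7 rose, among them Pyy, Sertm1, Etv1, Zfp503, Fgfr1 and Id2, 1 fell (Spock1) and 7 did not pass, beside 4.11% higher and 2.27% lower of all genes, with a median log2 difference of 0.35 against -0.0029 over all genes tested. Etv1, an ETS transcription factor, had 180, 276, 180 and 196 CPM in double-hormone cells, 33.1, 59.2, 41.9 and 34.6 CPM in insulin-only cells and 468, 553, 481 and 464 CPM in PP-only cells. Its levels also lay between both classes in every library. Against PP-only cells 2 of this list were higher (Fxyd6 and Slitrk6) and 4 lower, among them Etv1, Pyy and Meis2, with a median of -0.54 against -0.01 over all genes.

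The 10 genes with the highest fold over insulin-only cells, among those called with the same direction in each of the 3 libraries, included Mc4r, Pyy, Rcn3, Slc25a33, Pdk4, Colgalt2 and Ctxn2. Mc4r, the melanocortin 4 receptor, had 32.4, 25.1, 28.8 and 16.4 CPM in double-hormone cells and 0.472, 1.13, 0.275 and 0.251 CPM in insulin-only cells. It reached 44.5, 105, 34.8 and 42.3 CPM in PP-only cells. Pdk4, a kinase that restrains pyruvate dehydrogenase, had 52.9, 125, 9.61 and 55.2 CPM in double-hormone cells and 2.49, 10.1, 0.715 and 1.24 CPM in insulin-only cells. All 10 genes were also higher in PP-only than in insulin-only cells in each of the 4 libraries.

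Of 28 transcription factors and maturity genes of beta cells, 27 were tested. Against insulin-only cells 15 fell, 12 did not pass and none rose, with a median log2 difference of -0.73. Against PP-only cells 21 rose and none fell, with a median of 1.85. The shares for all genes tested were 2.27% lower and 4.67% higher.

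G6pc2, the islet glucose-6-phosphatase subunit, had 610, 510, 901 and 945 CPM in double-hormone cells of Cre-positive, Cre-negative, IHG and control offspring libraries. Insulin-only cells had 1864, 2063, 2417 and 1999 CPM, and PP-only cells 28.9, 18.3, 30.8 and 50.8 CPM. Its difference was -1.31 ± 0.15 from insulin-only cells (edgeR adjusted p = 7.2e-05) and 4.64 ± 0.18 from PP-only cells (edgeR adjusted p = 1.8e-09) on the log2 scale. The levels lay between those of both classes in each library, nearer to insulin-only cells as a ratio.

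Mafa, a transcription factor of mature beta cells, had 167, 134, 476 and 664 CPM in double-hormone cells. Insulin-only cells had 752, 603, 1370 and 2044 CPM, and PP-only cells 15.6, 4.98, 10.7 and 50.8 CPM. Ucn3, a peptide of mature beta cells, had 223, 33.4, 464 and 605 CPM in double-hormone cells against 777, 239, 1327 and 1468 CPM in insulin-only cells. Against insulin-only cells Mafa fell by 1.68 ± 0.19 (edgeR adjusted p = 7.6e-05) and Ucn3 fell by 1.44 ± 0.16 (edgeR adjusted p = 5e-05) on the log2 scale. With insulin at 20% or more in the rule, and in a fit with no library block, neither was called against insulin-only cells; over all alternatives the adjusted p reached 0.33 for Mafa and 0.54 for Ucn3.

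Slc2a2, the glucose transporter GLUT2, had 110, 410, 370 and 550 CPM in double-hormone cells, 399, 921, 1084 and 1161 CPM in insulin-only cells and 9.02, 5.54, 9.38 and 38.9 CPM in PP-only cells. It too was lower than in insulin-only and higher than in PP-only cells in every library. Of the factors shared by islet endocrine cells, Nkx2-2 and Isl1 passed in neither contrast. Isl1 had 382, 485, 317 and 435 CPM in double-hormone cells and 451, 434, 362 and 413 CPM in insulin-only cells. Nkx6-1 had 634, 660.5, 815 and 806 CPM in double-hormone cells, 1024, 921, 1142 and 1112 CPM in insulin-only cells and 389, 238, 358 and 469 CPM in PP-only cells, and passed in both contrasts.

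**Figure D5:**
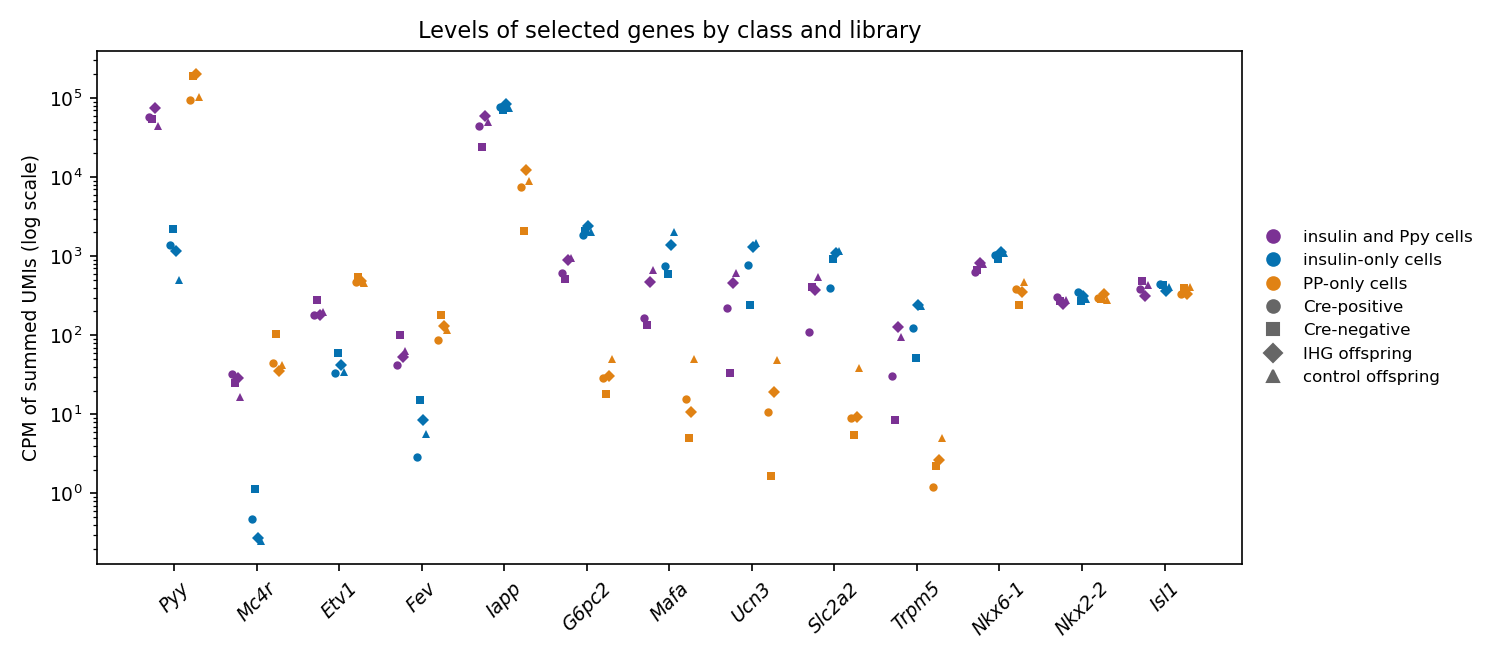
CPM of UMIs summed per library and class (y axis, log scale) for 4 genes higher in PP cells (Pyy to Fev), 7 genes higher in beta cells (Iapp to Nkx6-1) and 2 shared factors (Nkx2-2 and Isl1); colours give the class and symbols the library. For the first 11 genes the double-hormone point of each library lies between those of the other classes, as for G6pc2 with 510 to 945 CPM against 1864 to 2417 CPM in insulin-only and 18.3 to 50.8 CPM in PP-only cells.

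The lowest folds against insulin-only cells belonged to Grin1, Igfbp5, Fer1l6, Npr1, Sorl1, Gm17767, Phgdh, Nupr1, Aldh1l2 and Th. Th, tyrosine hydroxylase, had 22.1, 25.1, 57.7 and 18.4 CPM in double-hormone cells, 96.8, 89.0, 178 and 85.2 CPM in insulin-only cells and 1.20, 2.77, 2.01 and 6.77 CPM in PP-only cells. Grin1, a subunit of the NMDA glutamate receptor, had 4.41, 16.7, 9.61 and 4.09 CPM in double-hormone cells against 34.1, 33.6, 44.0 and 36.2 CPM in insulin-only cells. Its PP-only levels of 4.81, 11.6, 6.70 and 3.39 CPM were close to those of the double-hormone cells, and that difference did not pass. Most of the other named genes were measured at under 20 CPM in the double-hormone cells.

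Against PP-only cells the highest folds were those of Car10, Tmem215, Msln, G6pc2, Cd79a, Slc2a2, Trpm5, Gad1, Mafa and Ucn3. Trpm5, a calcium-activated cation channel, had 30.9, 8.36, 127 and 96.1 CPM in double-hormone cells and 1.20, 2.21, 2.68 and 5.08 CPM in PP-only cells. Gad1, which makes GABA, had 39.7, 83.6, 224 and 85.9 CPM in double-hormone cells and 3.01, 3.32, 6.03 and 6.77 CPM in PP-only cells. The lowest folds were those of Gap43, Tinagl1, Olfm3, Peg10, Pygl, Sema3e, Pcdh8, Pik3c2g, Cacng4 and Edn3. Cacng4, an auxiliary subunit of calcium channels and AMPA receptors, had 25.7, 66.9, 36.1 and 24.5 CPM in double-hormone cells against 77.6, 136, 110 and 103 CPM in PP-only cells. Gap43, a protein of growing axons, had 0.735, 0, 2.40 and 8.18 CPM in double-hormone cells against 51.1, 53.7, 18.1 and 11.9 CPM in PP-only cells.

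Levels between those of both classes were the rule among all genes that separate them. In the Cre-positive library 71 of 78 genes that were 4-fold or more higher in PP-only than in insulin-only cells, with at least 50 CPM, lay between the classes in double-hormone cells, and 102 of 102 in the opposite direction did. The counts were 54 of 64 and 160 of 171 in the Cre-negative library, 68 of 68 and 125 of 126 in IHG offspring, and 96 of 98 and 118 of 118 in control offspring. Of 4222 genes with a mean of at least 50 CPM, 0 (0%) were above and 0 (0%) below both classes by 1.5-fold. The count asked for this in all 3 libraries whose double-hormone cells entered the fit.

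The summed profile of the double-hormone cells was also fitted as a non-negative mixture of the insulin-only and PP-only profiles of the same library. The PP-only part was 52.2% in Cre-positive, 39.8% in Cre-negative, 34.3% in IHG and 40.3% in control offspring, with a Pearson's r across 32267 genes of 0.995, 0.973, 0.990 and 0.996. Genes are not independent replicates, and the fit describes sums over cells. It used CPM without a log scale, so abundant genes such as Pyy and Iapp weigh most. No r with 1 class alone was computed, so the height of these values is not read as a result. A fit of sums does not tell cells with both programmes from barcodes that hold a pair of cells.

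Genes of both programmes were also counted per barcode, which does not tell 1 cell from a pair of cells either. The gate required both hormones and high-scoring barcodes were kept. A higher rate than in the other classes is thus partly set by that choice. At least 1 UMI of Etv1 together with at least 1 of Mafa, Ucn3, Slc2a2 or G6pc2 was found in 153 of 250 double-hormone cells (61.2%). The share was 17.2% of insulin-only, 18.4% of PP-only and 3.57% of endothelial-rich cells. After thinning each cell to 3000 UMIs, which left out 20 double-hormone cells, the pair was seen in 22.9% of Cre-positive (interval 15.0 to 32.6%), 22.2% of Cre-negative (2.81 to 60.01%), 27.3% of IHG (16.1 to 40.96%) and 22.9% of control offspring (13.7 to 34.4%) double-hormone cells. At that depth it was seen in 6.07, 9.57, 6.56 and 6.03% of insulin-only and 9.24, 6.27, 6.33 and 13.8% of PP-only cells, and in 0.768, 0, 4.24 and 5.64% of endothelial-rich cells, where 0 of 72 Cre-negative cells allows up to 4.99%. The intervals of double-hormone and PP-only cells overlapped in the Cre-negative library and in control offspring, where PP-only cells had 3.70 to 9.85% and 7.91 to 21.7%.

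The 76 double-hormone cells at or below the insulin-only median depth and outside the top scores carried the same genes at lower levels for some. They were shallow, with medians of 3930.5 UMIs in Cre-positive, 6366 in IHG and 4005 in control offspring cells. Insulin-only medians were 10124, 8927.5 and 5939 UMIs in the same order. Etv1 had 93.1 CPM in the 24 Cre-positive, 110.5 CPM in the 26 IHG and 139 CPM in the 25 control offspring cells of that kind, on 8, 13 and 9 UMIs, against 179, 278 and 175 CPM in double-hormone cells among the top scores. G6pc2 had 233, 493 and 602 CPM there, against 705, 1150 and 1006 CPM among the top scores. Nkx6-1 had 873, 893 and 1003 CPM there, against 714, 685 and 650 CPM among the top scores. Mafa had 69.8, 213 and 401 CPM in the shallow cells, on 6, 25 and 26 UMIs, against 221, 659 and 865 CPM among the top scores. Slc2a2 had 46.6, 187 and 401 CPM, on 4, 22 and 26 UMIs, against 156, 478 and 628 CPM. Etv1, G6pc2, Mafa and Slc2a2 were thus lower and Nkx6-1 higher in the shallow than in the high-scoring cells, in 3 of 3 libraries. Etv1, Mafa and Slc2a2 rested on few UMIs. Of the other genes counted, Ucn3 was lower in all 3, on 9, 37 and 17 UMIs in the shallow cells, and Chga was higher. Gc, Pyy and Iapp were mixed. Gc had 303, 349 and 540 CPM in the shallow cells against 288, 581 and 384 CPM among the top scores. Pyy had 41418, 43394 and 44163 CPM against 44909, 114020 and 39250 CPM. The single Cre-negative cell of that kind is left out of these values.

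Lists for the other islet types were counted in the same way. Of 12 alpha-cell genes 10 were tested, and 3 rose against insulin-only cells, among them Gc and Cltrn, where 4.11% of all genes rose. The median log2 difference of the list was 1.07. Gc, the vitamin D binding protein, had 333, 577, 423 and 399 CPM in double-hormone cells, 141, 203, 162 and 201 CPM in insulin-only cells and 629, 1060, 854 and 625 CPM in PP-only cells. Irx1 and Irx2, factors of alpha cells, did not pass and stayed at or under 10.2 CPM in double-hormone cells. Of 8 delta-cell genes 4 were tested, with a median of 0.98, and 2 rose beside 4.11% of all genes (Rbp4 and Hhex), Rbp4 having 264, 485, 240 and 233 CPM in double-hormone cells against 75.9, 241, 57.5 and 24.6 CPM in insulin-only cells.

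Among the neuropeptide Y family, only Pyy was expressed enough to be tested. Npy, the founding ligand, had 2 UMIs in Cre-positive, 0 in Cre-negative, 0 in IHG and 2 in control offspring double-hormone cells. The receptor genes Npy2r and Npy5r had 0 UMIs in all 3 classes of every library. Npy1r and Npy4r had 0 in double-hormone cells.

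Granule and prohormone genes did not all move one way. Of 21 tested, 6 rose against insulin-only cells (Resp18, Pcsk1n, Chgb, Gnas, Pam and Scg5) and 3 fell (Slc30a8, Pcsk1 and Scg3), beside 4.11% higher and 2.27% lower of all genes. Pcsk1, the convertase that opens proinsulin processing, had 111, 176, 202 and 251 CPM in double-hormone cells, 215, 380, 358 and 378 CPM in insulin-only cells and 28.3, 29.9, 36.8 and 76.2 CPM in PP-only cells. Pcsk2, the other convertase, had 3273, 3194, 3939 and 3676 CPM in double-hormone cells and 2839, 2579, 4109 and 3715 CPM in insulin-only cells, and passed in neither contrast. Chga, chromogranin A, was higher than in PP-only cells, with 41110, 34703, 44942 and 35979 CPM in double-hormone cells against 22165, 20863, 19632 and 19432 CPM in PP-only cells (log2 difference 0.94 ± 0.12, edgeR adjusted p = 0.00013).

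Of 22 endocrine progenitor genes and genes kept low in mature beta cells, 12 were tested and 4 rose against insulin-only cells (Fev, Hk1, Oat and Cd81), beside 4.11% of all genes. Fev, a transcription factor of endocrine progenitors, had 42.6, 100, 52.9 and 63.4 CPM in double-hormone cells, 2.92, 15.3, 8.44 and 5.62 CPM in insulin-only cells and 86.0, 179, 130 and 115 CPM in PP-only cells. Its level in PP-only cells was the highest in each library. Of 20 immediate early genes 5 rose against insulin-only cells (Egr2, Klf4, Zfp36, Fosb and Jund), beside the same 4.11%. Of 23 tested genes of the unfolded protein and integrated stress responses 2 rose (Atf3 and Ppp1r15a) and 2 fell (Sel1l and Edem1), beside 4.11% and 2.27% of all genes. Atf3 had 397, 184, 101 and 393 CPM in double-hormone cells, 145, 12.0, 27.3 and 49.4 CPM in insulin-only cells and 732, 136, 139 and 709 CPM in PP-only cells.

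Of 8 tested cell cycle genes Mki67 and Top2a were lower than in both classes, beside 2.27% and 1.69% of all genes. Mki67 had 0 UMIs in double-hormone cells of every library, against 1.72, 7.27, 11.6 and 3.46 CPM in insulin-only and 2.40, 11.6, 9.38 and 3.39 CPM in PP-only cells, and no fold is given against 0. All 14 listed cell cycle genes summed to 80.7, 71.5, 39.2 and 62.5 CPM of all UMIs, against 65.3, 94.2, 90.3 and 61.9 in insulin-only cells. In Cre-positive mice 4 of 104 double-hormone cells (3.85%) held 5 or more of these UMIs, against 1.49% of insulin-only cells. No double-hormone cell of the other libraries did. The part of the small cell number in the 0 Mki67 UMIs was not tested. Markers of non-endocrine cells were tested too. Against insulin-only cells 1 of 8 endothelial genes (Esam) and 3 of 4 acinar and duct genes (Cela1, Spp1 and Krt18) rose, beside 4.11% of all genes, and none of 5 macrophage, 2 mesenchymal, 4 Schwann cell and neuron and 1 lymphocyte genes passed. Spp1, osteopontin, had 38.2, 8.36, 79.3 and 38.8 CPM in double-hormone cells and 55.3, 57.6, 176 and 91.4 CPM in PP-only cells. The acinar and duct list summed to 492, 84.5, 273 and 293 CPM of all UMIs in double-hormone cells, 264, 103, 118 and 105 in insulin-only cells and 611, 189, 409 and 491 in PP-only cells. Its part in the results was not tested.

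Between groups, double-hormone cells could be compared only as 1 summed profile against another. Of 4753 genes with 50 CPM or more in a library, 597 (12.6%) were higher and 1686 (35.5%) lower by 1.5-fold in Cre-positive than in Cre-negative double-hormone cells, 2283 in all (48%). The Cre-negative profile rests on 9 cells and 119614 UMIs, against 1359916 in Cre-positive cells. The median gene was shifted by -0.34 on the log2 scale, and with median-of-ratios scaling the split was 1147 higher and 787 lower. The interval of the ratio lay past 1.5-fold for 88 higher and 199 lower genes.

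The higher genes with the bound farthest past 1.5-fold were Bag3, Mt2, Mt1, Hsph1, Dnaja4, Dusp8, Dnaja1, Krt8, Dio1 and Hspb1. Hsph1, a large heat shock protein, had 1449 CPM in Cre-positive and 92.0 CPM in Cre-negative double-hormone cells, a ratio of 15.8 (8.78 to 31.6). The ratio was 6.48 in insulin-only and 11.2 in PP-only cells. Mt1, a metal-binding metallothionein, had 4148 CPM in Cre-positive and 343 CPM in Cre-negative double-hormone cells, a ratio of 12.1 (8.91 to 16.9), beside 6.96 in insulin-only and 3.16 in PP-only cells. Ddit4, whose product restrains mTOR under stress, had less RNA in Cre-positive double-hormone cells, at 48.5 CPM, against 385 CPM in Cre-negative ones, a ratio of 0.126 (0.0853 to 0.188), with ratios of 0.186 and 0.110 in insulin-only and PP-only cells. The intervals cover counting error only.

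Between IHG and control offspring 340 of 4165 genes (8.16%) were higher and 444 (10.7%) lower by 1.5-fold in double-hormone cells, 784 in all (18.8%), with a median shift of -0.02 on the log2 scale. The interval lay past 1.5-fold for 18 higher and 39 lower genes. The lower genes with the bound farthest past 1.5-fold were Ccn1, Npas4, Hsph1, Atf3, Hspa1b, Rnf138rt1, Dnajb1, Hspb1, Fosb and Klf2. Npas4, an activity-induced transcription factor, had 62.5 CPM in IHG and 333 CPM in control offspring double-hormone cells, a ratio of 0.188 (0.119 to 0.285), beside 0.330 in insulin-only and 0.268 in PP-only cells. Hspa1b, which can share reads with its near-identical copy Hspa1a, had 5013 CPM in IHG and 13079 CPM in control offspring double-hormone cells, a ratio of 0.383 (0.365 to 0.403), beside 0.701 in insulin-only and 0.297 in PP-only cells.

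Nnat, an imprinted membrane proteolipid gene, was among the higher genes, after Esm1 and Msln, with 257 CPM in IHG and 77.7 CPM in control offspring double-hormone cells. Its ratio was 3.31 (2.27 to 4.93), beside 2.85 in insulin-only and 1.93 in PP-only cells. Pcsk1n, proSAAS, had 1372 CPM in IHG and 689 CPM in control offspring double-hormone cells, a ratio of 1.99 (1.74 to 2.29), beside 1.82 and 1.94 in the other classes. Esm1, Flt1, Kdr and Ly6a, genes of endothelial cells, were also higher in IHG double-hormone cells, Esm1 at 96.1 CPM against 16.4 CPM in control offspring. Beside this, 7 of 57 IHG and 1 of 80 control offspring double-hormone cells held 5 or more endothelial UMIs, and the 8 endothelial markers summed to 372 and 160 CPM of all UMIs. The ratios of Esm1, Flt1, Kdr and Ly6a in insulin-only cells were 0.775, 1.01, 1.06 and 1.59. In PP-only cells they were 0.791, 0.832, 0.962 and 1.98, so Ly6a was higher in IHG offspring in the other classes too. The part of endothelial RNA in these differences was not tested.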

How the data were processed

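The authors deposited matrices of counts, whole numbers of UMIs for 32285 genes per cell barcode and not normalized, 1 matrix per library. Per the submitters' processing notes, Cell Ranger, Seurat and the build mm10 were used in some role. Whether counting used strand, and how barcodes were filtered, is not given in the sources read, so overlapping or near-identical genes can share reads. The double-hormone cells and the gene lists were chosen with earlier results of these data known.

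Shares are percent of a barcode's UMIs. Intervals are exact (Clopper-Pearson) at 95%, those of ratios from the conditional binomial, and cover counting error only. Doublets were not removed in the main values; scores came from Scrublet in scanpy 1.11.5 at an expected rate of 0.06. UMIs were summed per library and class, without the 5 rule genes and mitochondrially encoded genes, and tested with edgeR 4.0.16 (R 4.3.3; filterByExpr, TMM, Benjamini-Hochberg over 11042 genes, adjusted p under 0.05), leaving out classes under 10 cells in a library. The test was checked on simulated data. DESeq2 1.42.0 was an alternative. Libraries come from different mice and groups. With the library as a block, p-values set the mean difference between classes against the spread left after class and library. All classes shared 1 estimate of that spread, and double-hormone cells of 3 libraries entered, each of another group.

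Named genes were the 10 highest and 10 lowest folds among those called, with 1 direction in each library and at least 20 CPM in a class. Between groups they were those with the interval bound farthest past 1.5-fold, besides members of 17 gene lists. Some genes that meet these rules are not reported here.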

Additional observations from a re-analysis of the deposited data

How the results depend on the processing

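The share ratio of Cre-positive to Cre-negative was 42.05 with Ppy at 3% or more, on 1 Cre-negative cell, and 0.8211 with Pyy in place of Ppy; with insulin at 20% or more no Cre-negative cell was left and no ratio or group count could be had. The IHG to control ratio was 1.385 with insulin at 20% and reversed to 1.56 with Pyy, though its main interval included 1. The depth ratio was 2.079 with insulin at 20% and 1.009 with Pyy, and the share among the top doublet scores 50.94% and 21.71%. Genes called against insulin-only cells numbered 74 with insulin at 20%, 1064 without a filter on low counts, 136 with no library block, and 158 to 1012 over fits that left out 1 library. Against PP-only cells they numbered 410 with Ppy at 3%, 304 with insulin at 20%, 462 without the top doublet scores, 314 within the middle range of double-hormone depth, 1732 with Pyy, 1077 without the filter, 312 with no library block, and 244 to 894 leaving out 1 library. DESeq2 called 776 and 758. Genes past 1.5-fold between Cre-positive and Cre-negative numbered 3912 with Ppy at 3%, 1267 with Pyy and 3912 at 20 CPM. Between IHG and control offspring they numbered 1534 with Ppy at 3%, 1684 with insulin at 20%, 403 with Pyy, 2272 at 20 CPM and 459 by CPM of all UMIs. The cause was not tested, beyond the smaller number of cells under stricter rules. For the 40 genes named from the fits, 541 of 638 values under alternatives kept direction and call, 97 kept the direction alone and 0 reversed. These genes were chosen for a call and 1 direction in each library, and the alternatives draw on the same libraries. The lack of reversals was thus largely set by that choice. The Pyy rule and a fit with the 9 Cre-negative cells, which called 876 and 863 genes, were chosen after seeing the data. No paired analysis was possible between groups because each group has 1 library. The number of cells limits the Cre-negative double-hormone values most. These 9 cells held 119614 UMIs in all, so 1 UMI is worth more there than in the double-hormone cells of any other library.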

Other observations

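Traces of the other islet hormones differed among the double-hormone cells. Gcg had a median of 0.129% of UMIs in Cre-positive, 0.0168% in Cre-negative, 0.0530% in IHG and 0.0248% in control offspring double-hormone cells, close to the 0.113, 0.0184, 0.0448 and 0.0240% of insulin-only cells. The 90th percentile of Gcg was 0.791% in Cre-positive, 1.03% in IHG and 0.264% in control offspring double-hormone cells, against 0.216, 0.0992 and 0.0744% in insulin-only cells. In the Cre-negative library it was 0.0452% in double-hormone cells against 0.0480% in insulin-only cells. That of Sst was 2.22% in Cre-positive, 0.414% in IHG and 1.96% in control offspring double-hormone cells, against 0.0888, 0.0586 and 0.0582% in insulin-only cells. In the Cre-negative library it was 0.0449% in double-hormone cells against 0.0866% in insulin-only cells. With Gcg and Sst below 1% in the rule, the Cre-positive to Cre-negative share ratio was 5.50 and the IHG to control ratio 0.980.

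Npy was seen in PP-only cells of 1 library. It had 258 UMIs (155 CPM) in Cre-positive PP-only cells, and 0 UMIs in Cre-negative, IHG and control offspring PP-only cells. The Cre-positive double-hormone cells had 2 Npy UMIs (1.47 CPM), against 4.42 CPM in Cre-positive insulin-only cells.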
